A study of Arabidopsis thaliana with 11 samples.

Results

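Immunophilins and small heat shock proteins are chaperones, and 5 genes of these classes were followed in torpedo-stage embryos of Arabidopsis thaliana. The genes were CYP71 and CYP59, which encode cyclophilins, AT5G48570, which encodes an immunophilin of the FKBP type, and AT1G53540 and ATHSP22.0, which encode small heat shock proteins. They were chosen by annotation: each has a probe set that the chip annotation gives to that gene alone, and each has only 1 such probe set. They make up 5 of the 13286 genes that have a probe set of their own and 5 of the 22746 probe sets tested. The 2 cyclophilins were taken as constitutive and the other 3 genes as heat-inducible. No array of the series comes from heated plants, so these class names rest on background knowledge and could not be checked here.

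Whole wild-type embryos were dissected from maturing seeds and measured with 11 Affymetrix ATH1 arrays. Accessions that need ZLL, the ARGONAUTE gene also known as AGO10, for shoot stem cell maintenance are called ZLL-dependent: Fe-1 (3 arrays), Ler-0, Nw-0 and Bay-0 (1 array each). Van-0 and Ts-1 (1 array each) and Col-0 (3 arrays) are ZLL-independent. No plant was treated or carried a zll mutation, but Ler-0 carries the erecta mutation, and all embryos spent up to 1 h in buffer on ice before freezing. The array called Ler-0 here is named Ler-1 in its source label and the Ts-1 array is named Tossa del Mar-0 in another label.

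Cyclophilins and FKBP-type proteins are the classical immunophilins, and most of them speed the turning of peptide bonds before proline, a slow step in protein folding. Small heat shock proteins bind unfolding proteins and keep them from clumping. Many of their genes are nearly silent in unstressed leaves, rise sharply with heat, and are also switched on in seeds as embryos mature. Cyclophilins are of interest in this tissue because SQN, the plant counterpart of an animal cyclophilin that works with HSP90, supports the function of ARGONAUTE proteins.

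Values are log2 signals after RMA, which normalises probe intensities between arrays and then summarises them per probe set, and a difference of 1 is a 2-fold change. Array medians lay between 7.57 and 7.71. Arrays of 1 accession correlated at 0.996 to 0.997 across probe sets and arrays of different accessions at 0.978 to 0.988. Signals of different probe sets were not compared as transcript levels of their genes, since probes differ in strength. They were ranked only to mark low signals and to find probe sets of like signal. Differences were tested with limma, and a probe set was called, whatever its fold change, if its p after Benjamini-Hochberg adjustment over all 22746 probe sets was under 0.05. Intervals are 95% intervals from the same fits, not adjusted for the number of comparisons. The probes follow the Col-0 sequence, so in other accessions a lower transcript level and a poorer probe match cannot be told apart. Likewise, in whole embryos fewer cells of a type and less RNA per cell cannot be told apart.

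CYP71, a nuclear cyclophilin that acts at chromatin and in organ formation, was almost level across accessions. Its log2 signal was 10.14, 10.21 and 10.18 in the 3 Fe-1 arrays, 10.12 in Ler-0, 10.21 in Nw-0 and 10.50 in Bay-0, against 10.23 in Van-0, 10.33 in Ts-1 and 10.20, 10.07 and 10.21 in Col-0. Bay-0 was the highest array, and the Fe-1 and Col-0 arrays overlapped. The accession means spanned 0.37 on the log2 scale, a 1.29-fold range. Without the Bay-0 array that range was 0.21.

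CYP59, a nuclear cyclophilin that binds RNA and the tail of RNA polymerase II, was also nearly level. It read 9.07, 9.14 and 9.16 in Fe-1, 9.12 in Ler-0, 9.34 in Nw-0 and 9.32 in Bay-0, against 9.34 in Van-0, 9.27 in Ts-1 and 9.14, 9.14 and 9.26 in Col-0. The Fe-1 and Col-0 arrays overlapped here too. The accession means spanned 0.22, or 1.17-fold, and in 0 of the 21 pairs of accessions did the 95% interval of the difference exclude 0. For CYP71 it excluded 0 in 4 of the 21 pairs, all of them with Bay-0.

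AT5G48570, also named FKBP65 or ROF2, is an FKBP-type immunophilin whose transcript rises with heat and which takes part in acquired thermotolerance. It varied far more than the cyclophilins. Its log2 signal was 8.78, 8.88 and 8.79 in Fe-1, 7.32 in Ler-0, 7.19 in Nw-0 and 7.41 in Bay-0, against 10.50 in Van-0, 7.94 in Ts-1 and 8.20, 8.33 and 8.28 in Col-0. Van-0 stood highest by a wide margin, Fe-1 came next, and the other 3 ZLL-dependent accessions lay at the bottom, so the high and low accessions did not follow ZLL dependency. The accession means spanned 3.31 on the log2 scale, or 9.94-fold, from Nw-0 to Van-0. Without the single Van-0 array the range was 1.63.

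AT1G53540 encodes a small heat shock protein of the cytosol. It read 7.09, 7.19 and 7.50 in Fe-1, 7.61 in Ler-0, 6.91 in Nw-0 and 7.21 in Bay-0, against 7.69 in Van-0, 7.31 in Ts-1 and 7.81, 7.91 and 8.27 in Col-0. All 3 Col-0 arrays lay above every other array. The range of accession means was 1.09, or 2.12-fold, with Nw-0 lowest, and it was 0.78 without Nw-0. Replicates also differed more than for the other members, with an SD of 0.21 in Fe-1 and 0.24 in Col-0 (n = 3 each).

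ATHSP22.0, a small heat shock protein of the endoplasmic reticulum, gave a low and flat signal. It read 3.67, 3.61 and 3.51 in Fe-1, 3.66 in Ler-0, 3.80 in Nw-0 and 3.75 in Bay-0, against 3.82 in Van-0, 3.69 in Ts-1 and 3.68, 3.69 and 3.68 in Col-0. Every one of these values lay below the lower quartile of its own array, which was 4.92 to 5.04. A difference at this level could lie below what the probe set can show, and its range of 0.23 is no sign of steady expression. The deposited values carry no detection call.

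**Figure D1:**
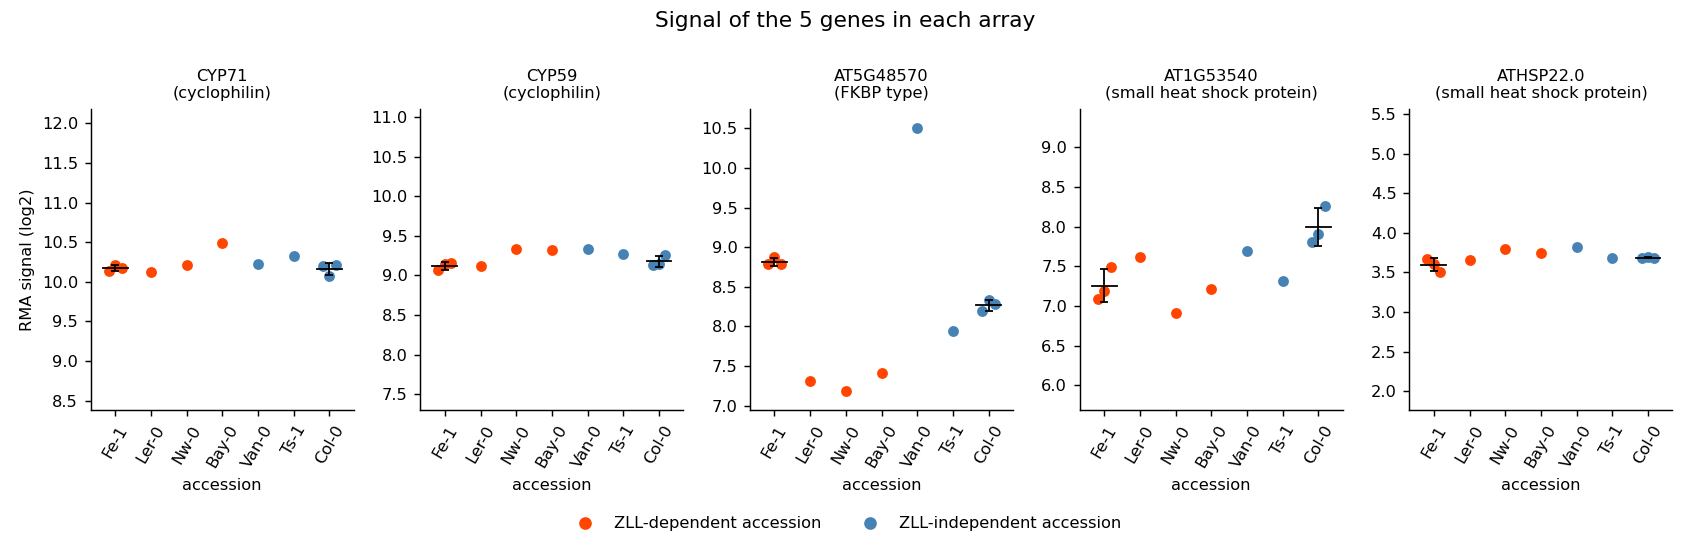
RMA signal (log2) of each of the 5 genes in all 11 arrays, by accession. Points are arrays, and the line and bar for Fe-1 and Col-0 are the mean and SD of 3 arrays. All panels span the same number of log2 units. AT5G48570 runs from 7.19 in Nw-0 to 10.50 in Van-0, AT1G53540 is highest in Col-0, and the other 3 genes are nearly flat.

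To set the constitutive against the heat-inducible members, each gene was tested for a difference among the 7 accessions with a fit of 1 mean per accession, in which the spread comes from the Fe-1 and Col-0 replicates. Among all probe sets, 7056 of 22746 were called in this test, which is 31.0%. Of the 3 heat-inducible members, AT5G48570 (adjusted p = 1.5e-05) and AT1G53540 (adjusted p = 0.0322) were called and ATHSP22.0 was not (adjusted p = 0.444). Neither of the 2 constitutive members was called, with adjusted p = 0.209 for CYP71 and 0.32 for CYP59 (limma moderated F). Against that background 2 of 5 genes called is not a result about the members, and groups of 2 and 3 genes are too small for a comparison of shares. The call of AT1G53540 was lost without Fe-1 replicate 2 (adjusted p = 0.0641) and without Col-0 replicate 1 (0.054), 2 (0.075) or 3 (0.0519).

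The size of the differences separated the members more than the calls. The range of accession means of AT5G48570 was larger than that of 99.0% of all probe sets, and larger than that of 98.3% of the 2600 probe sets of like mean signal, within 0.5 log2 units. AT1G53540 stood at 85.6% of all probe sets and 68.7% of those of like signal. The other members lay in the lower part: CYP71 at 34.7%, ATHSP22.0 at 11.8% and CYP59 at 11% of all probe sets. Among probe sets of like signal CYP71 stood at 29.7%, ATHSP22.0 at 35.3% and CYP59 at 4.3%. The median range over all probe sets was 0.48, against 0.37 for the median of the 5 members. Between-accession SD was 18.8 times the within-accession SD for AT5G48570, 2.10 times for CYP71, 1.66 times for CYP59, 1.59 times for AT1G53540 and 1.39 times for ATHSP22.0, and 1.55 times for the median probe set. By this ratio AT1G53540, whose replicates were the widest apart, ranked below CYP71 and CYP59. That ranking depends on the unmoderated within-accession SD, which was 0.061 for CYP71, 0.060 for CYP59 and 0.23 for AT1G53540. The moderated SDs behind the limma test lay closer together, at 0.087, 0.086 and 0.18. Of these genes that test called only AT1G53540.

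**Figure D2:**
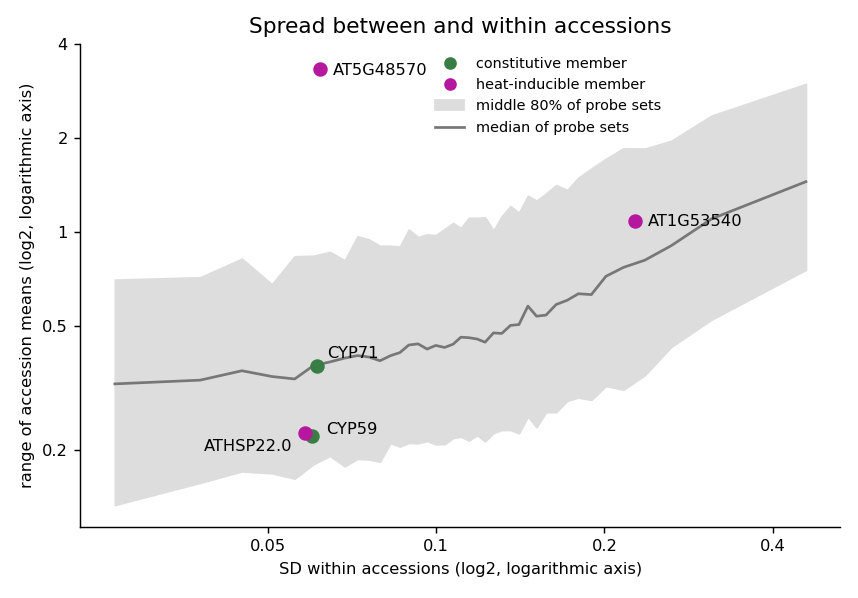
Range of the 7 accession means (log2) against the SD within Fe-1 and Col-0 (log2), both on logarithmic axes. Points are the 5 genes, the line is the median and the band the middle 80% of all tested probe sets, in bins of like within-accession SD. AT5G48570 lies above the band at a range of 3.31, and the other 4 genes lie inside it.

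For AT5G48570 the order of accessions was Van-0, Fe-1, Col-0, Ts-1, Bay-0, Ler-0 and Nw-0. The first 4 steps of that order exceeded the error: Van-0 over Fe-1 by 1.69 (95% interval 1.45 to 1.92), Fe-1 over Col-0 by 0.55 (0.38 to 0.71), Col-0 over Ts-1 by 0.33 (0.09 to 0.56) and Ts-1 over Bay-0 by 0.53 (0.25 to 0.82). Bay-0, Ler-0 and Nw-0 were not told apart, with intervals of -0.20 to 0.38 for Bay-0 minus Ler-0 and -0.16 to 0.41 for Ler-0 minus Nw-0. Over all 21 pairs of accessions the interval excluded 0 in 18 for AT5G48570, 6 for AT1G53540, 4 for CYP71 and 0 each for CYP59 and ATHSP22.0. All 4 pairs for CYP71 involve Bay-0. For accessions with 1 array these intervals take the spread of Fe-1 and Col-0 as their own.

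The order of AT1G53540 was from the top Col-0, Van-0, Ler-0, Ts-1, Fe-1, Bay-0 and, lowest, Nw-0, and no step between neighbours exceeded the error. Of its 6 pairs that did, 4 were with Col-0, which exceeded Fe-1, Ts-1, Nw-0 and Bay-0. In the other 2, Nw-0 lay under Ler-0 and under Van-0.

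Set against Col-0 one accession at a time, AT5G48570 was called in 5 of 6 accessions. These contrasts with single accessions, other than Fe-1, were chosen after the values had been seen. It was 4.71-fold higher in Van-0 (log2 difference 2.23, adjusted p = 2.3e-05), where 13.5% of all probe sets were called. It was lower in Ler-0 by 1.94-fold (adjusted p = 0.001, background 13.8%), in Nw-0 by 2.11-fold (adjusted p = 0.000938, background 8.39%) and in Bay-0 by 1.82-fold (adjusted p = 0.00211, background 14.2%). In Ts-1 its difference from Col-0 was -0.33 and it was not called (adjusted p = 0.0978, background 8.18%). With Fe-1 above Col-0, the called differences of ZLL-dependent accessions lay on both sides of Col-0 for this gene.

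AT1G53540 lay below Col-0 in all 6 accessions. Besides Fe-1, it was called in Nw-0 (log2 difference -1.09, adjusted p = 0.0218) and Bay-0 (-0.78, adjusted p = 0.0469), but not in Ler-0 (-0.38, adjusted p = 0.303), Van-0 (-0.30, adjusted p = 0.388) or Ts-1 (-0.68, adjusted p = 0.0986). All 6 contrasts use the same 3 Col-0 arrays, so their shared direction is not 6 separate observations. CYP71, CYP59 and ATHSP22.0 were called in none of the 6 accessions. The largest difference among them was CYP71 in Bay-0, at 0.34 (95% interval 0.10 to 0.57, adjusted p = 0.0656).

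**Figure D3:**
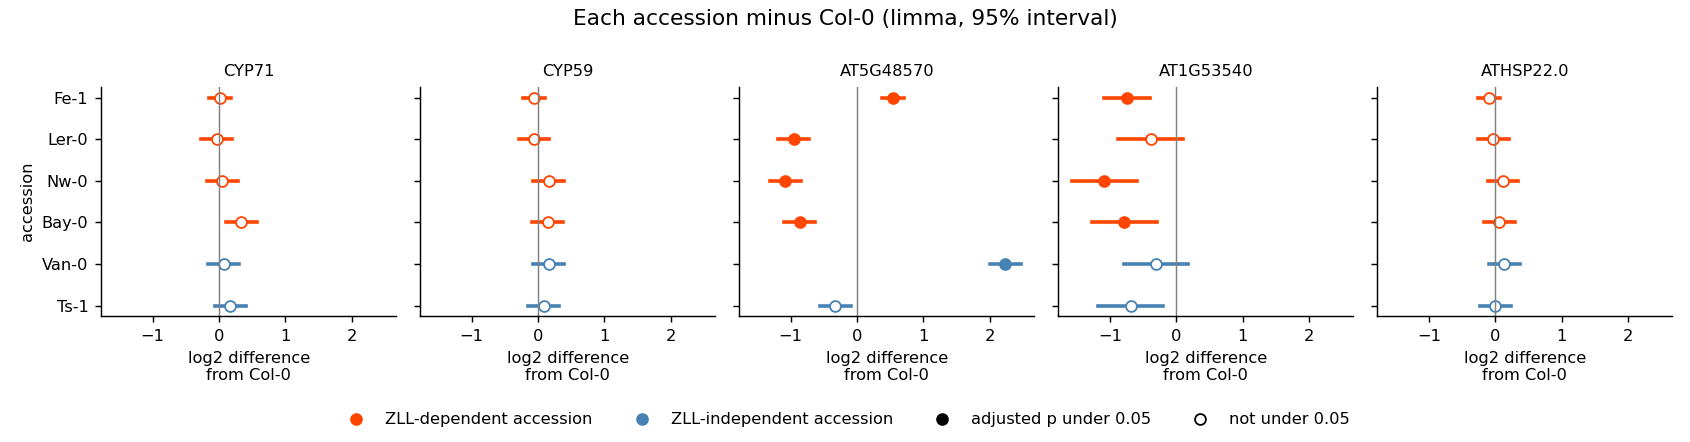
Log2 difference of each accession from Col-0 for the 5 genes, with 95% intervals from the fit of 1 mean per accession. Filled points have an adjusted p under 0.05. AT5G48570 is above Col-0 in Fe-1 and Van-0 and below it in Ler-0, Nw-0 and Bay-0, and AT1G53540 is below Col-0 throughout.

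Fe-1 against Col-0 is the only comparison in which both accessions have replicate arrays. AT5G48570 averaged 8.82 ± 0.05 in Fe-1 and 8.27 ± 0.07 in Col-0 (SD, n = 3 each), and it was 1.46-fold higher in Fe-1 (log2 difference 0.55, 95% interval 0.38 to 0.71, adjusted p = 0.00137). AT1G53540 averaged 7.26 ± 0.21 in Fe-1 and 7.99 ± 0.24 in Col-0, and it fell by 0.74 on the log2 scale in Fe-1 (adjusted p = 0.0089). Col-0 thus exceeded Fe-1 by 1.67-fold. The 2 heat-inducible members with a clear signal thus moved in opposite directions, each with no overlap between the arrays, and neither reached 3-fold. The uncalled ATHSP22.0 also showed no overlap, and the share of all probe sets without overlap was not counted. Over all probe sets 17.8% were called higher and 11.4% lower in Fe-1, and 1 member was called in each direction.

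The other 3 members were not called in Fe-1. The differences were 0.02 for CYP71 (95% interval -0.15 to 0.18, adjusted p = 0.892), -0.06 for CYP59 (-0.22 to 0.11, adjusted p = 0.581) and -0.09 for ATHSP22.0 (-0.25 to 0.07, adjusted p = 0.382). The ATHSP22.0 arrays of Fe-1 all lay below those of Col-0, whose 3 values spanned 0.01. The median of the 5 members was -0.06, and that of all probe sets was 0.06. After median centring of the arrays, 2678 probe sets were called higher and 3721 lower in Fe-1, in place of 4056 and 2599, and both member calls held.

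Fe-1 and Ler-0 were also compared as 1 group with Col-0, a grouping taken from the study. Here AT5G48570 was not called: the Fe-1 arrays lay at 8.78 to 8.88 and Ler-0 at 7.32, on either side of the Col-0 arrays at 8.20 to 8.33. Its group difference was 0.17 (adjusted p = 0.791). Within that group Fe-1 exceeded Ler-0 by 2.83-fold, with a 95% interval of 1.27 to 1.73 on the log2 scale. Without Ler-0 the comparison is that of Fe-1 alone, in which AT5G48570 was called.

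AT1G53540 was the only member called in Fe-1/Ler-0, with a log2 difference of -0.65 from Col-0 (adjusted p = 0.043). Its arrays did not overlap those of Col-0, but neither did those of the uncalled ATHSP22.0. The share of all probe sets without overlap was not counted. Over all probe sets 7.69% were called higher and 4.65% lower. The call was lost without any single Fe-1 array (adjusted p = 0.0751 to 0.108) or Col-0 array (0.0762 to 0.148), and with accession as a random block (0.243). CYP71, CYP59 and ATHSP22.0 differed by 0.0029, -0.06 and -0.07 and were not called. After median centring 1041 probe sets were called higher and 1698 lower, in place of 1750 and 1057.

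All ZLL-dependent arrays were then set against all ZLL-independent arrays, 6 against 5. None of the 5 members was called, where 0.229% of all probe sets were called higher and 0.22% lower. AT5G48570 ranged from 7.19 to 8.88 (median 8.10) in ZLL-dependent arrays and from 7.94 to 10.50 (median 8.28) in ZLL-independent arrays, with a difference of -0.59 (95% interval -1.70 to 0.52, adjusted p = 0.584). AT1G53540 ranged from 6.91 to 7.61 (median 7.199) in ZLL-dependent arrays and from 7.31 to 8.27 (median 7.81) in ZLL-independent arrays, with a difference of -0.55 (-0.92 to -0.18, adjusted p = 0.141). The arrays of the groups overlapped for both genes, and for the other 3 members the differences lay between -0.05 and 0.02. Without adjustment over probe sets, 1 member, AT1G53540, had a limma p under 0.05, as had 3956 of all probe sets. Arrays of 1 accession are not independent samples of such a group, so p-values of both grouped comparisons are too small.

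As a single description per array, the mean of the 3 heat-inducible members minus the mean of the 2 cyclophilins was taken relative to its Col-0 mean. This index was -0.07, -0.10 and -0.05 in Fe-1, -0.41 in Ler-0, -0.79 in Nw-0 and -0.77 in Bay-0, against 0.58 in Van-0, -0.47 in Ts-1 and -0.08, 0.06 and 0.03 in Col-0. Fe-1 sat near Col-0 on the index while its members lay on opposite sides: the Fe-1 mean of -0.07 was -0.39 without AT5G48570 and 0.25 without AT1G53540. The index spanned 1.36 over accessions, with Van-0 highest and Nw-0 lowest. Without AT5G48570 it spanned 0.60, with Col-0 highest and Bay-0 lowest. With any other member left out, the range from the highest to the lowest accession was 1.37 to 2.04. Across the 11 arrays AT5G48570 and AT1G53540 correlated at r = 0.23 and the cyclophilins at r = 0.64, values that rest on only 7 accessions and are given without a test.

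**Figure D4:**
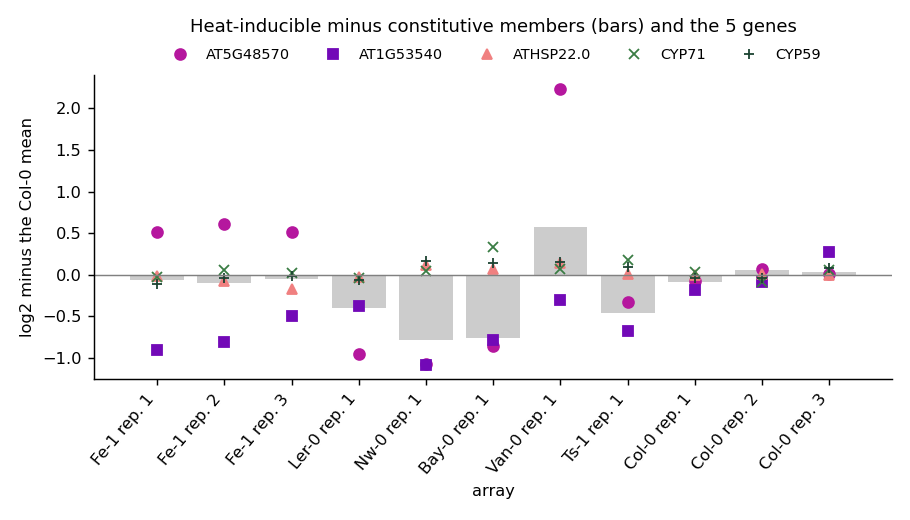
Index of heat-inducible minus constitutive members in each array (bars, log2 minus the Col-0 mean), with the value of each of the 5 genes relative to its own Col-0 mean (symbols). AT5G48570 at 2.23 lifts the Van-0 bar to 0.58, and in Fe-1 AT5G48570 and AT1G53540 lie on opposite sides of 0.

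The other small heat shock protein genes were read from a list of 18, of which 10 have a probe set of their own, both members of that class included. In Fe-1, 1 of the 10 rose and 5 fell relative to Col-0, against 17.8% and 11.4% of all probe sets, and the median of the 10 was -0.28. AT1G52560 was the gene that rose. It read 8.27, 8.58 and 8.71 in Fe-1 and 7.12, 7.36 and 7.15 in Col-0, a 2.48-fold difference (adjusted p = 0.000363). The strongest fall was that of AT5G47600, at 7.82, 8.05 and 8.09 in Fe-1 and 9.58, 9.78 and 9.996 in Col-0, a signal 3.48-fold higher in Col-0 (adjusted p = 7.7e-05). AT2G29500 fell by 1.00, AT4G21870 by 0.79 and AT1G54050 by 0.31, and AT1G53540 is the remaining gene of the 5. AT4G21870 lay at 3.91 to 4.36 in Fe-1, below the lower quartile of those arrays (4.92 to 5.03). It was at 4.92 to 5.09 in Col-0, near the quartile, so the size of its fall is uncertain. AT2G29500 lay just above the quartile in Fe-1, at 5.09 to 5.50. AT2G19310, AT5G37670 and AT5G51440 differed by 0.24, -0.25 and 0.01 and were not called, like ATHSP22.0. Median centring left these counts at 1 and 5, and with Fe-1 replicate 1 as the only Fe-1 array they were 1 and 3.

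Among accessions, 7 of the 10 small heat shock protein genes were called, where the background is 31.0%, and the median range of the 10 was 1.10 against 0.48 over all probe sets. They did not share 1 order of accessions. AT5G47600 had the widest range, 5.50 on the log2 scale, with 13.49 in Ts-1 and 10.95 in Ler-0 against 7.82 to 8.09 in Fe-1. AT1G54050 was low in Nw-0 (8.14), Bay-0 (8.12) and Ts-1 (8.31) and lay between 9.51 and 10.25 in the other accessions. AT1G52560 was lowest in Ts-1, at 6.14. Van-0, where AT5G48570 was highest, had 1 of the 10 called, near the 13.5% of all probe sets. This was AT5G51440, at 5.90 in Van-0 and 5.16, 4.78 and 5.28 in Col-0. Of the 10, 3 were called in Ler-0 (13.8% of all probe sets), 2 in Nw-0 (8.39%), 3 in Bay-0 (14.2%) and 3 in Ts-1 (8.18%).

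**Figure D5:**
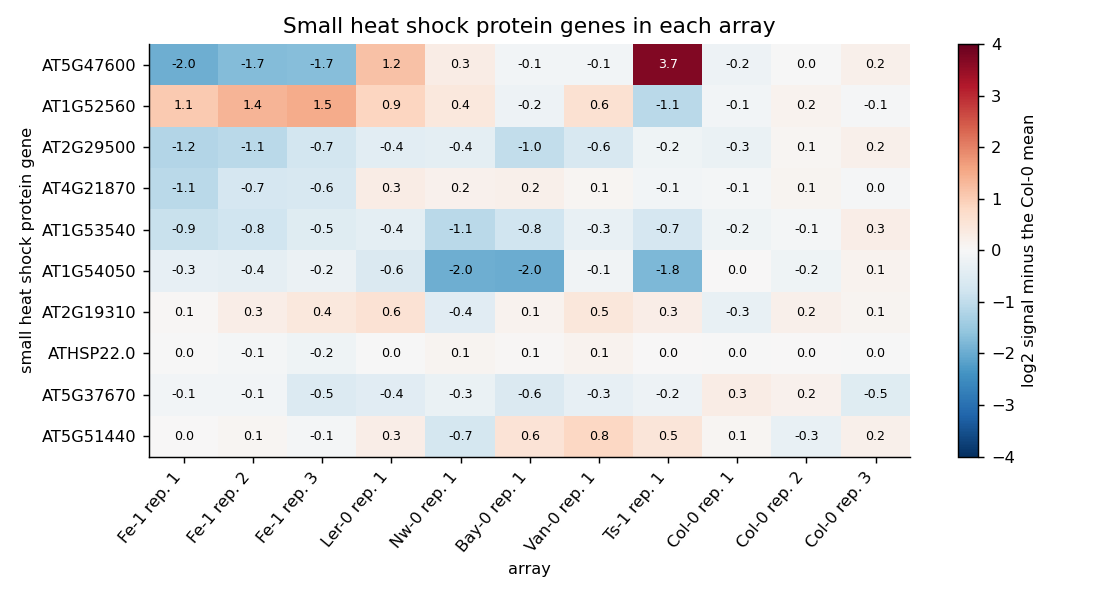
Log2 signal minus the Col-0 mean for the 10 measured small heat shock protein genes (rows, ordered by adjusted p in Fe-1 against Col-0) in the 11 arrays (columns). AT5G47600 is at 3.7 in Ts-1 and at -2.0 in Fe-1 replicate 1, while AT1G54050 is low in Nw-0, Bay-0 and Ts-1.

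Of 29 listed cyclophilin genes, 19 were measured, CYP71 and CYP59 among them. In Fe-1, 3 rose and none fell relative to Col-0, where 17.8% and 11.4% of all probe sets did, and the median of the 19 was 0.12. SQN was 6.26-fold higher, at 8.63, 8.61 and 8.70 in Fe-1 and 5.87, 6.08 and 6.06 in Col-0 (adjusted p = 1.35e-06). PUB49 rose by 0.63 and AT4G34960 by 0.56, and AT3G55920, next by adjusted p, differed by 0.16 (adjusted p = 0.103). Among accessions 5 of the 19 were called, against 31.0% of all probe sets, and the median range was 0.36. SQN spanned 3.43, slightly more than the 3.31 of AT5G48570. With Fe-1 replicate 1 as the only Fe-1 array, 2 cyclophilin genes rose.

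Of 23 listed FKBP-type genes, 14 were measured, AT5G48570 among them. In Fe-1, 3 rose and 2 fell, near the 17.8% and 11.4% of all probe sets, and the median of the 14 was -0.17. AT4G19830 had the strongest change. It read 5.97, 5.94 and 5.57 in Fe-1 and 8.11, 7.73 and 7.94 in Col-0, a signal 4.28-fold higher in Col-0, while Ler-0 was at 8.46. AT3G12340 rose by 0.43 and AT3G55520 by 0.47. After median centring 3 rose and 6 fell, and with Fe-1 replicate 1 as the only Fe-1 array none rose and 1 fell. Among accessions 6 of the 14 were called, beside 31.0% of all probe sets, and AT5G48570 had the widest range of the 14.

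The partners of these chaperones were measured in part. Of 18 listed co-chaperones and heat regulators 7 were measured, and in Fe-1 3 rose and 1 fell, with 17.8% higher and 11.4% lower over all probe sets. Hop2 and Hop1, which link HSP70 and HSP90, rose by 0.36 and 0.22, Fes1A, an exchange factor of HSP70, rose by 0.31, and SGT1A, a partner of HSP90, fell by 0.55. Hop3, also measured, differed by -0.06 and was not called. After median centring 1 of the 7 rose and 1 fell. Only 2 of 20 listed large heat shock protein genes were measured, and neither was called: Hsp70-2 differed by 0.08 and AT3G09440 by 0.10. None of 21 listed heat shock factor genes has a probe set of its own here. Of 14 cold and wounding genes 3 were measured, too few to set against those shares, and all 3 were called in Fe-1: STZ, a zinc finger gene, rose by 0.56, COR47 by 0.29, and COR15A fell by 0.32. After median centring 1 of the 3 rose and 1 fell, and with Fe-1 replicate 1 as the only Fe-1 array none was called.

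Markers of other seed tissues were checked beside these results. Of 12 seed coat genes 2 were measured, BAN and DFR, both enzymes of flavonoid synthesis. BAN read 5.07, 8.77 and 7.40 in Fe-1 and 7.61 in Van-0, against 4.67, 5.95 and 4.995 in Col-0, and it lay between 4.72 and 5.26 in the other 4 accessions. DFR read 5.84, 9.51 and 7.53 in Fe-1, 7.97 in Ler-0 and 7.43 in Van-0, against 5.55, 6.16 and 5.50 in Col-0. Van-0, where AT5G48570 was highest, was thus among the arrays with high BAN and DFR signal. Within Fe-1, AT5G48570 lay between 8.78 and 8.88 and BAN between 5.07 and 8.77. With Fe-1 replicate 1 as the only Fe-1 array, an alternative added once the values were known, AT5G48570 differed from Col-0 by 0.52 and AT1G53540 by -0.91. With all Fe-1 arrays the differences were 0.55 and -0.74. Neither member call held in that setting, but it rests on 1 Fe-1 array, so a lost call does not show a smaller difference. Whether seed coat RNA had a part in these results was not tested. AGL62, the 1 of 8 endosperm genes measured, averaged 3.73 ± 0.15 (SD over the 11 arrays) and stayed under the lower quartile of each array. Of 13 embryo genes PHV and CLV3 were measured, and neither was called in Fe-1. Both were called among the 7 accessions (limma moderated F, adjusted p = 0.0476 for PHV and 0.0178 for CLV3), where 31.0% of all probe sets were. In the accessions with 1 array PHV differed from Col-0 by 0.14 (Nw-0) to 0.48 (Bay-0). CLV3 differed there by -0.81 (Nw-0) to 0.58 (Van-0). Of 27 seed maturation genes 5 were measured and none was called in Fe-1, with M17 at -0.54 (adjusted p = 0.129) and AT1G03890 at 0.29 (adjusted p = 0.0577), AT3G15670 at 0.295 and M10 at 0.07. They were not level in the single Ler-0 array, where M10 lay 1.10, AT3G15670 1.07 and AT1G03890 0.50 above Col-0. There OLEO3 differed by 0.04 and M17 by -0.39. Whether the embryos differed in maturity was not tested.

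The genes whose signals most resembled each member over the 11 arrays were picked by Pearson's r among genes with a probe set of their own. They are a description, since the best of 13286 genes correlate highly by selection and 7 accessions underlie the 11 arrays. For AT5G48570 they were AT1G22980 (r = 0.95), AT5G24890 (0.93) and AT5G30520 (0.91), all highest in Van-0. AT1G22980 spanned 4.59 to 7.62 on the log2 scale, while AT5G30520 spanned only 3.12 to 3.41. For AT1G53540 they were AT1G34220 (0.96), AT1G15230 (0.95) and AT3G22520 (0.95), all highest in Col-0 replicate 3 and lowest in Nw-0. For CYP71 they were AT4G04180 (0.92), AT3G52030 (0.91) and AT4G33500 (0.89), all highest in Bay-0. For CYP59 they were AT1G51720 (0.92), AT5G49555 (0.91) and AT1G03280 (0.90). For ATHSP22.0 they were AT1G60230 (0.93), AT2G42960 (0.93) and AT5G05570 (0.92), although its own signal varied by only 0.31. No small heat shock protein, cyclophilin or FKBP-type gene of the lists was among these 15 genes.

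The members lie on chromosomes 3 (CYP71), 1 (CYP59 and AT1G53540), 5 (AT5G48570) and 4 (ATHSP22.0). CYP59 and AT1G53540 are close together on chromosome 1, with 25 protein-coding genes between them in the TAIR10.1 gene table. Their signals differed in pattern, with r = -0.09 over the 11 arrays.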

How the data were processed

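The 11 ATH1 arrays of wild-type torpedo-stage embryos hold 3 biological replicates each of Fe-1 and Col-0 and 1 array each of the other 5 accessions. The authors processed them with RMA (background correction, quantile normalisation, summary per probe set) and deposited log2 values, which were used without a further step. The version of RMA and any hybridisation batch were not given in the sources. The number of arrays limits the precision. After 64 chip controls were left out, 22746 probe sets remained: the chip annotation gives 13513 to 1 gene and 503 to several, and 8730 are not listed. Genes were matched to the TAIR10.1 gene table.

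Groups were compared in R 4.3.3 with limma 3.58.1 (lmFit, eBayes), and the fits were tested on simulated data. The members and the 11 gene lists were chosen with earlier results of these data known. Named are the 5 members, the small heat shock proteins in full, up to 4 genes of each other list with the lowest adjusted p in Fe-1 against Col-0, and the 3 genes most like each member. Hop3 and OLEO3 are named in addition. Figures used matplotlib 3.10.9. Sequences were not analysed here.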

Additional observations from a re-analysis of the deposited data

Results flagged for a closer look

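In 15 sets of arrays (5 genes in Fe-1/Ler-0, in the ZLL-dependent and in the ZLL-independent arrays), 4 single arrays stood far from the rest by Dixon's criterion. Chance flags about 1 of 20 sets of like samples, but these sets join replicates of 1 accession with single arrays of others, so that rate does not hold here and the 4 are given as a description. AT5G48570 was at 10.50 in Van-0, the other ZLL-independent arrays lying at 7.94 to 8.33, and at 7.32 in Ler-0, the Fe-1 arrays of its group lying at 8.78 to 8.88. CYP71 was at 10.50 in Bay-0, with 10.12 to 10.21 in the other ZLL-dependent arrays. ATHSP22.0 was at 3.82 in Van-0, with 3.68 to 3.69 in the other ZLL-independent arrays, a signal below the lower quartile of every array. Van-0, Bay-0 and Ler-0 have 1 array each, so these values have no replicate.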

How the results depend on the processing

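Alternatives covered the scaling of the arrays, the filter on low or cross-hybridising probe sets, the variance model (trend and robust), blocks, a limit of 3-fold, and leaving out arrays. Settings without more than 1 array were added once the values were known, and they also leave fewer arrays. ATHSP22.0 is among the lowest 25% and has no value under that filter. Each member has 1 probe set, and no other was tried.

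In Fe-1/Ler-0 against Col-0, 1 member was called, and 0 to 2 with 1 array left out. The count was 0 with the replicate number as a block, with accession as a random block, without Fe-1 replicates 2 and 3 and at 3-fold. In Fe-1 against Col-0 the count of 2 became 0 at 3-fold and without Fe-1 replicates 2 and 3. Among accessions it was 2, then 1 to 2 with 1 array left out, 1 at 3-fold and 1 with Van-0 and Fe-1 replicates 2 and 3 left out. Between the ZLL groups it stayed at 0.

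Whether the replicate numbers pair the arrays is not known. Deviations of same-numbered Fe-1 and Col-0 arrays correlated weakly, at 0.23, 0.04 and 0.11, and those of differently numbered arrays at -0.15 to 0.04. Fe-1 replicate 2 correlated about equally with Col-0 replicates 2 and 3, at 0.035 and 0.037. These values are too weak and too few to decide the question. With the replicate number as a block the members called numbered 0 in Fe-1/Ler-0 and 2 in Fe-1, and all called probe sets 1440 in place of 2807 and 6600 in place of 6655.

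Called probe sets in Fe-1/Ler-0 (2807) numbered 666 with accession as a random block, 423 without Fe-1 replicates 2 and 3, and 1197 to 6655 with 1 array left out. In Fe-1 (6655) they numbered 2031 without replicates 2 and 3. Between the ZLL groups (102) they numbered 15 with a random block, 3 with accession means and 27 to 983 with 1 array left out. Among accessions (7056) they numbered 2859 with Van-0 and Fe-1 replicates 2 and 3 left out. After a renewed quantile normalisation 3344 probe sets were higher and 3145 lower in Fe-1, and 1304 and 1299 in Fe-1/Ler-0.

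The range over accessions was 0.21 without Bay-0 for CYP71 (0.37), 0.32 with median centring for CYP59 (0.22), and 0.30 with median centring for ATHSP22.0 (0.23). For AT5G48570 (3.31) it was 3.22 with median centring, 3.19 without Nw-0 and 1.63 without Van-0, and for AT1G53540 (1.09) 0.78 without Nw-0. With 1 array left out the range was 0.21 to 0.37 for CYP71, 0.22 to 0.23 for CYP59, 1.63 to 3.31 for AT5G48570, 0.78 to 1.18 for AT1G53540 and 0.18 to 0.26 for ATHSP22.0. The index of Fe-1 (-0.07) was -0.39 without AT5G48570 and 0.25 without AT1G53540. Its range from the highest to the lowest accession (1.36) was 1.48 without CYP59, 0.60 without AT5G48570, 1.71 without AT1G53540 and 2.04 without ATHSP22.0.

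Directions of uncalled members turned in some settings, and the cause was not tested. CYP71 differed by -0.0348 after a renewed quantile normalisation and -0.0944 after median centring in Fe-1/Ler-0, by -0.0309 and -0.0803 in Fe-1, and by -0.0105 and -0.0314 between the ZLL groups, where the values as reported lay between 0.0029 and 0.02. With 1 array left out CYP71 ranged from -0.0416 to 0.0291 in Fe-1/Ler-0, -0.0288 to 0.042 in Fe-1 and -0.0358 to 0.0491 between the ZLL groups. In Fe-1/Ler-0 it was -0.0026 with a random block and -0.0297 without Fe-1 replicates 2 and 3, and in Fe-1 it was -0.0238 without those replicates. AT5G48570 was -0.22 in Fe-1/Ler-0 without them. With Van-0 and those replicates left out, CYP59 (0.01) and ATHSP22.0 (0.0336) turned between the ZLL groups.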
